A study of Mus musculus with 6 samples.

Results

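The genes described here build the outer, cornified layer of the skin. They were 41 mouse genes chosen by symbol from an RNA-seq count table of FACS-sorted hair follicle stem cells, and 40 of the 41 had a row among its 23377 genes (Flg, filaggrin, was not analysed here). Expression was compared between 2 libraries of the genotype Ring1a/b-/-, called RingKO, and 2 wild-type (WT) libraries, all from C57BL/6 mice and made from 3000 sorted cells each. Either Ring1a or Ring1b serves as the ubiquitin ligase of Polycomb repressive complex 1, which marks histone H2A and holds developmental genes silent. For these libraries the sources used here name neither the agent that removed both genes, nor the time since removal, the age and number of the animals, or whether replicates came from separate ones. The p-values below therefore measure only the spread between these libraries, which may be technical.

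When a keratinocyte leaves the basal layer it first makes the keratins Krt1 and Krt10, then the precursors of a protein envelope, such as involucrin, loricrin and small proline-rich proteins. Transglutaminases crosslink these proteins beneath the cell membrane, lipids are attached to the outside, and proteases later free the dead cells from the surface. Follicle stem cells lie in a different compartment, although the inner root sheath of the follicle also cornifies and uses some of the same transglutaminases. Many envelope genes sit side by side in 1 cluster, the epidermal differentiation complex.

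The cornification genes formed a silent set and an expressed set, with few between them. At least 1 CPM (counts scaled to the library's TMM-adjusted size) was found in all 4 libraries for 20 members, and under 1 CPM in all 4 for 13. The 13 were Krt1, Krt77, Flg2, Hrnr, Rptn, Sprr1b, Sprr2d, Lce1a1, Lce1m, Lce3c, Spink5, Alox12b and Cdsn. The other 7 (Krt2, Lor, Sprr1a, Cnfn, Tgm5, Aloxe3 and Krtdap) reached 1 CPM in some libraries and not in others. Transcription factors and the secreted, surface or other proteins of early differentiation made up most of the expressed set, and late envelope proteins most of the silent one. No member passed edgeR's quasi-likelihood test between genotypes at an adjusted p under 0.05 (0 of 22 tested, 8 at an unadjusted p under 0.05). Over all 13134 genes tested, 0.0609% passed, 0.0533% as higher and 0.00761% as lower in RingKO, and 16.6% had an unadjusted p under 0.05. Ly6d and the transglutaminase genes Tgm1 and Tgm3 lay lower in both RingKO libraries, and Ppl, Klk7 and Prdm1 lay higher.

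**Figure D1:**
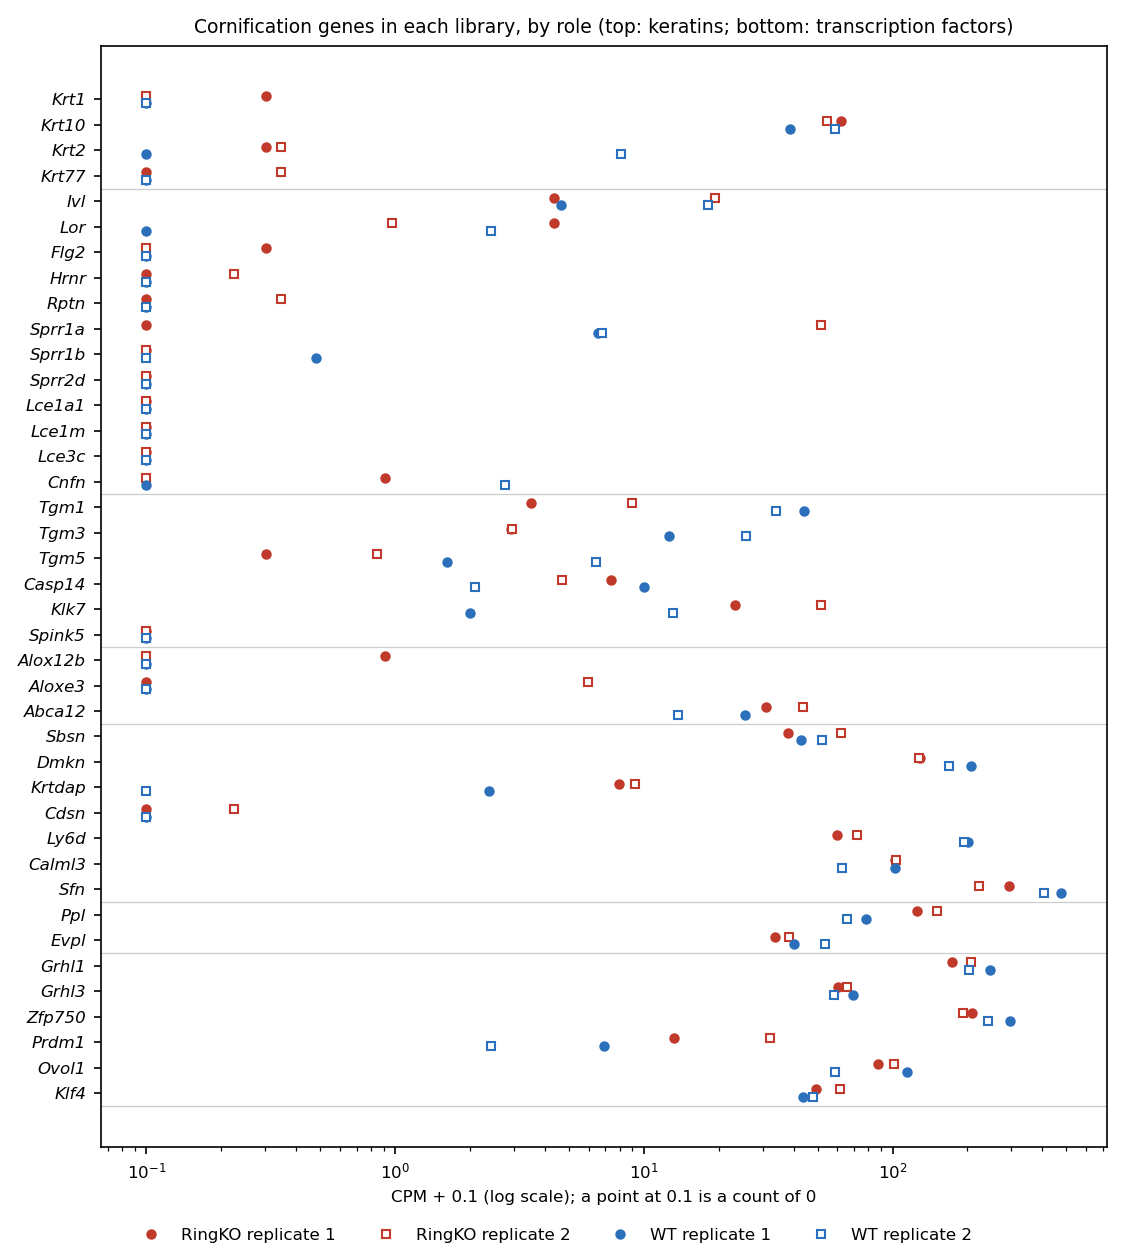
CPM + 0.1 on a log axis for the 40 cornification genes with a row in the count table, 1 row per gene, grouped by role with grey lines between roles. Red symbols are the 2 RingKO libraries and blue symbols the 2 WT libraries (filled circle replicate 1, open square replicate 2). A point at 0.1 is a count of 0. The 13 silent members stay below 1 CPM in every library, and Ly6d, Tgm1, Tgm3, Ppl, Klk7 and Prdm1 show no overlap between red and blue.

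The start regions of a few members, picked from the set, are printed as examples. RefSeq promoters (GRCm38.p6, from 250 bases before to 50 bases after a gene's start) matched 32 of the 41 members, with 37 promoters among them. The AP-1 motif TGANTCA, on either strand, was found in 14 of the 37 (37.8%) and in 7.81% of all 32851 promoters of that length. Promoters of 1 gene can overlap and share a match, as for Dmkn. By gene, 12 of the 32 members held the AP-1 motif, and 2425 of all 27025 genes with a promoter did. The TATA box letters TATAAA, on either strand, were found in 12 of the 37 (32.4%) and in 13.6% of all. The Grainyhead motif AACCGGTT, its own reverse complement, was found in 0 of the 37 and in 0.146% of all. A match is a description of these letters and shows no bound factor. The AP-1 and Grainyhead motifs read the same on both strands, and the letters at the ends of the Grainyhead motif can overlap either of the others.

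The first 3 promoters belong to genes of envelope building, with AP-1 and TATAAA matches in capitals: Sprr1a, an envelope precursor found in 1 of the 2 RingKO libraries (chr3:92485832-92486131, minus strand), Lor, the main precursor of the mature envelope (chr3:92083093-92083392, minus strand), and Tgm3, a transglutaminase lower in both RingKO libraries (chr2:130012090-130012389, plus strand). All coordinates and sequences are those of RefSeq on GRCm38.p6, printed 5′ to 3′ on the strand of the gene.
Sprr1a: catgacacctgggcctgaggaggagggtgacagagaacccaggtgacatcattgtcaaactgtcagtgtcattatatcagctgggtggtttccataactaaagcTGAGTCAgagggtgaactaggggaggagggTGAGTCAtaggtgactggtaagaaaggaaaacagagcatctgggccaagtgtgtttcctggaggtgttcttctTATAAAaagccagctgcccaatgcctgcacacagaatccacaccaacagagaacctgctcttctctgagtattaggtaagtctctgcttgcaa
Lor: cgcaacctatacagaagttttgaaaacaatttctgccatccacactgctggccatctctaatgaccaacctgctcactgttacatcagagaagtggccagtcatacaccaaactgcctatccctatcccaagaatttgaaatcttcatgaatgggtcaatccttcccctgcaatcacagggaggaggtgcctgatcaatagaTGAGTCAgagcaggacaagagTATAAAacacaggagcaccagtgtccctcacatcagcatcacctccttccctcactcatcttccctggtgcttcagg
Tgm3: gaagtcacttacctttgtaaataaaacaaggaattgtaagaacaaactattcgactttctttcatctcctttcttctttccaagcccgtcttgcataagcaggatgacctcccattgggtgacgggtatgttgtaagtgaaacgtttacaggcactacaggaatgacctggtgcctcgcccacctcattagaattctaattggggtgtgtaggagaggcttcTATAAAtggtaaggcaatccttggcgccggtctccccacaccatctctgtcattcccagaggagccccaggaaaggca
Sprr1a held 2 AP-1 matches and 1 TATAAA, Lor 1 of each, and Tgm3 1 TATAAA with no AP-1 match. The number of CG pairs in these 300 bases was 0 for Sprr1a, 1 for Lor and 7 for Tgm3. Tgm1 also lay lower in both RingKO libraries, and both of its promoters, not printed, held no AP-1, TATAAA or Grainyhead match.

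The next 2 promoters belong to the members with the largest positive fold changes among those with an unadjusted p under 0.05, with every CG pair in capitals, since CG-rich start regions are the usual sites of Polycomb binding. They are Prdm1, a transcriptional repressor (chr10:44458699-44458998, minus strand), and Klk7, a protease of the skin surface (chr7:43811044-43811343, plus strand).
Prdm1: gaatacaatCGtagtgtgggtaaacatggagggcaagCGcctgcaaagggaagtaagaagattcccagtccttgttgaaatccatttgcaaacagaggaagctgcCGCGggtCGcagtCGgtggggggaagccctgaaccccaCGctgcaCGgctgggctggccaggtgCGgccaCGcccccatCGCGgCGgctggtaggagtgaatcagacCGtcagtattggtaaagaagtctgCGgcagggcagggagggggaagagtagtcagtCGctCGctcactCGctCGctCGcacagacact
Klk7: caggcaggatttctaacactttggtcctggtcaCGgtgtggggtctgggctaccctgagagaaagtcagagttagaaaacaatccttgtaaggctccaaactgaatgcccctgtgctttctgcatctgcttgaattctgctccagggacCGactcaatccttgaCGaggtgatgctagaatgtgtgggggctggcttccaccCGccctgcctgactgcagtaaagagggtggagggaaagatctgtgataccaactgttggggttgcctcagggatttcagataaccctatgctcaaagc
Prdm1 held 1 AP-1 match and Klk7 none, and neither held TATAAA. Prdm1 held 20 CG pairs and Klk7 held 4, against a median of 7 over all promoters and of 4 over those of the members. The most among member promoters were 40 for Klf4 and 35 for 1 promoter of Grhl1. Their log2 fold changes were 0.27 (edgeR adjusted p = 0.808) and -0.24 (edgeR adjusted p = 0.638). A link between CG pairs and fold change was not tested. Among members at 1 CPM or more in all libraries the median was 6.5 CG pairs over 18 promoters, and among the silent members it was 3 over 12 promoters. Ring1b peaks of this series are on another genome build (mm9) and were not placed at these genes here.

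The libraries held 4844381 and 7740945 counts in RingKO, against 2785843 and 3056593 in WT, so that the RingKO pair was the deeper. Replicates were not copies of 1 library: their counts gave a chi-square of 25 for RingKO and 15 for WT, divided by its degrees of freedom, where sampling noise alone gives about 1. The targeted genes were present in all libraries: Ring1 (Ring1a) stood at 15.5 and 18.4 CPM in RingKO, against 31.9 and 29.4 CPM in WT, and Rnf2 (Ring1b) at 151 and 153 CPM in RingKO, against 144 and 87.8 CPM in WT. Which exons were deleted is not stated, and whole-gene counts therefore do not check the genotype labels. Of the 12 follicle stem cell markers, all reached 1 CPM in both RingKO libraries and 11 in both WT libraries, with sums of 1814 and 1504 CPM in RingKO, against 1466 and 1595 CPM in WT. Single markers differed in direction behind these sums. Lgr5 stood at 251 and 240 CPM in RingKO, against 140 and 194 CPM in WT, Sox9 at 172 and 156 CPM in RingKO, against 49.4 and 95.1 CPM in WT, and Nfatc1 at 38.8 and 34 CPM in RingKO, against 0 and 2.34 CPM in WT. Krt15 stood at 303 and 250 CPM in RingKO, against 417 and 362 CPM in WT, and Cd34 at 15.3 and 2.61 CPM in RingKO, against 24.3 and 20.4 CPM in WT. Inner root sheath and hair shaft markers summed to 1651 and 1962 CPM in RingKO, against 3719 and 3032 CPM in WT, with a negative fold change in 10 of 11 tested. Leukocyte markers summed to 769 and 317 CPM in RingKO, against 153 and 133 CPM in WT, with a positive fold change in 8 of 8 tested and Cd207 at 0 in every library. Fibroblast markers summed to 462 and 266 CPM in RingKO, against 736 and 950 CPM in WT. Dcn, the highest of them, stood at 272 and 159 CPM in RingKO, against 593 and 430 CPM in WT. Of the 7 tested, 5 overlapped, 1 was lower (Dcn) and 1 higher (Pdgfra) in RingKO. Merkel cell markers summed to 78.9 and 109 CPM in RingKO, against 7.97 and 31.4 CPM in WT, mostly from Krt8 and Krt18. Krt20 (3 and 1 counts in RingKO, 0 and 5 in WT) and Atoh1 (0 and 7, against 0 and 2) overlapped. Sox2 (11 and 40 counts in RingKO, 0 and 0 in WT) and Isl1 (67 and 97, against 0 and 11) were higher in both RingKO libraries, as were Krt8 and Krt18. In sorted bulk cells, fewer cells of a type and less RNA per cell cannot be told apart.

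**Figure D2:**
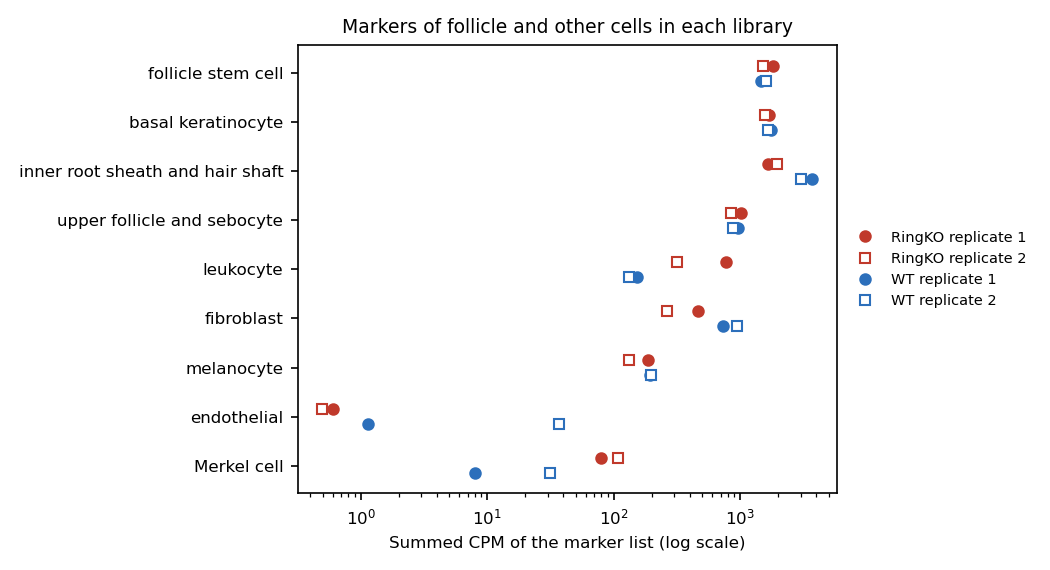
Summed CPM of 9 marker lists in each library on a log axis, RingKO (red) above WT (blue), circles for replicate 1 and squares for replicate 2. Inner root sheath and hair shaft markers sum to 1651 and 1962 CPM in RingKO, below 3719 and 3032 CPM in WT, and leukocyte markers sum to 769 and 317 CPM in RingKO, above 153 and 133 CPM in WT.

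Of the suprabasal keratins, Krt10, the acidic keratin of the first suprabasal layers, was the only one tested. It stood at 62 and 54.3 CPM in RingKO, against 38.7 and 58.7 CPM in WT, and the groups overlapped. The log2 fold change of RingKO over WT was 0.25 ± 0.37 (SE; 95% confidence interval -0.60 to 1.11; edgeR adjusted p = 0.832), and without WT replicate 1 it was -0.0112. Its partner Krt1, the basic keratin of the same layers, had 1 and 0 counts in RingKO and 0 in both WT libraries. Krt77 had 0 and 2 counts in RingKO and 0 in both WT libraries. Krt2, a keratin of the upper spinous and granular layers, had 1 and 2 counts in RingKO, against 0 and 24 in WT, so that RingKO over WT gave 0.0542 (95% counting interval 0.0104 to 0.178). All 24 of its WT counts came from 1 library, which also held nearly all endothelial marker signal (a sum of 36.7 CPM, against 1.14 CPM in WT replicate 1).

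Envelope and granule proteins were mostly not detectable at this depth. Of the 12 with a row, 4 had 0 counts in every library: Sprr2d and the late envelope genes Lce1a1, Lce1m and Lce3c. A count of 0 allows up to 3 counts, which is 0.606 and 0.373 CPM in the RingKO libraries and 1.14 and 1 CPM in the WT libraries, for counting error only. Flg2, Hrnr and Rptn, large granule proteins related to filaggrin, had at most 2 counts in any library. Lor had 21 and 7 counts in RingKO, against 0 and 7 in WT, and Cnfn, cornifelin, had 4 and 0 counts in RingKO, against 0 and 8 in WT. The groups overlapped for both Lor and Cnfn.

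Involucrin and Sprr1a were the envelope genes expressed enough to test, and both varied more between the RingKO replicates than between genotypes. Ivl, an early scaffold of the envelope, stood at 4.24 and 19.2 CPM in RingKO, against 4.56 and 18 CPM in WT. The lower value of each pair was replicate 1, and the log2 fold change was 0.05 ± 1.12 (SE; edgeR adjusted p = 0.992), with values from -1.42 without RingKO replicate 2 to 1.35 without WT replicate 2. Sprr1a, a crosslinked envelope precursor also induced by stress, had 0 counts in RingKO replicate 1 and 413 in RingKO replicate 2, against 17 and 20 in WT. In CPM this is 0 and 51.4 in RingKO, against 6.45 and 6.67 in WT, so that the WT libraries lay between the 2 RingKO libraries. The fitted log2 fold change, 1.97 ± 1.73 with an edgeR adjusted p of 0.658, rests on RingKO replicate 2, and without that library it was -7.55. Its near relative Sprr1b had 1 count in 1 WT library. Reads of the small proline-rich genes may be split between near-identical copies, so these counts are uncertain.

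The neighbourhood of these genes was read as gene order along the epidermal differentiation complex. RefSeq lists 70 protein-coding genes from S100a1 to S100a10, of which 66 had a row and 12 are members. Of the 66, 40 had 0 counts in every library, among them 20 of 21 Lce genes and 11 of 13 Sprr genes. Signal lay mostly at both ends, in the S100 genes, which encode small calcium-binding proteins: 9 of 15 reached 1 CPM in both RingKO libraries and 8 in both WT libraries. Between them stood few expressed genes. Prr9, a proline-rich gene of the complex that is no member, stood at 6.26 and 26.3 CPM in RingKO, against 81.3 and 121 CPM in WT, with no overlap and an edgeR adjusted p of 0.147. Tchh, trichohyalin of the inner root sheath, stood at 65.6 and 288 CPM in RingKO, against 159 and 230 CPM in WT. Crnn, cornulin, was at 0 and 34.1 CPM in RingKO, against 28.9 and 13.7 CPM in WT. The groups overlapped for Tchh and Crnn, which like Sprr1a were lowest in RingKO replicate 1 and highest in RingKO replicate 2. Prr9, Tchh and Crnn were singled out after their values were seen.

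**Figure D3:**
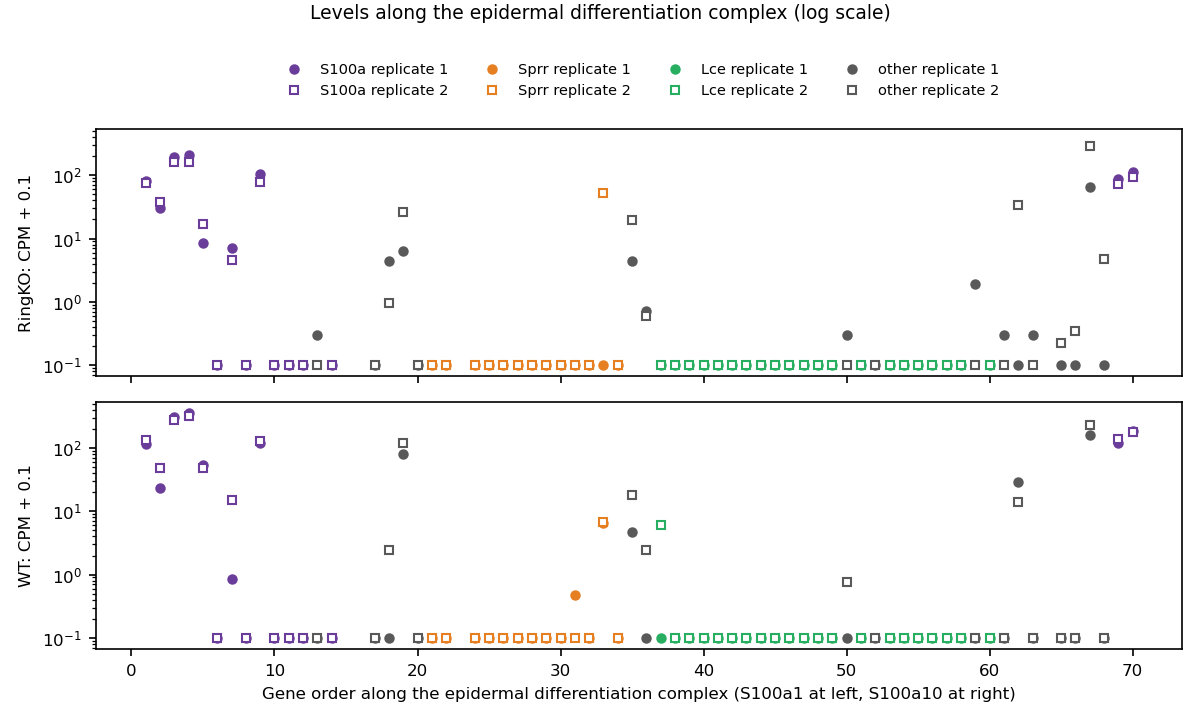
CPM + 0.1 on a log axis for the 66 genes of the epidermal differentiation complex with a row, by gene order from S100a1 to S100a10, RingKO above and WT below (circles replicate 1, squares replicate 2; colours mark the S100a, Sprr, Lce and other genes). The S100a genes at both ends are expressed in both genotypes, while 20 of 21 Lce and 11 of 13 Sprr genes lie at 0 counts in all 4 libraries.

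The transglutaminases lay lower in both RingKO libraries. Tgm1, the membrane-bound enzyme that crosslinks the envelope and attaches lipids to it, had 17 and 71 counts in RingKO, against 116 and 102 in WT. In CPM it stood at 3.43 and 8.84 in RingKO, against 44 and 34 in WT, with no overlap. The log2 fold change was -2.65 ± 0.74 (SE; 95% confidence interval -4.35 to -0.95), a 6.29-fold lower level, with an edgeR adjusted p of 0.154. Leaving out single libraries gave -3.51 without RingKO replicate 2, -2.14 without RingKO replicate 1, and -2.45 and -2.84 without WT replicates 1 and 2. Tgm3, a soluble transglutaminase of epidermis and hair, stood at 2.83 and 2.86 CPM in RingKO, against 12.5 and 25.7 CPM in WT. Both RingKO values lay below both WT values, which differed from each other more than the RingKO values did. Its log2 fold change was -2.74 ± 1.02 (SE; edgeR adjusted p = 0.234), and from -3.16 to -2.15 without a WT library. After subtraction of a smooth trend of all genes' fold changes on gene span and abundance it was -3.74. Tgm5, an epidermal transglutaminase of the upper layers, had 1 and 6 counts in RingKO, against 4 and 19 in WT, and was too low to be tested. The inner root sheath markers, sums of 1651 and 1962 CPM in RingKO against 3719 and 3032 CPM in WT, were lower as well, and their part in the transglutaminase values was not tested.

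Of the proteases, Klk7 lay higher in RingKO and Casp14 overlapped. Klk7, a protease that cleaves the junctions between cornified cells, had 115 and 414 counts in RingKO, against 5 and 39 in WT. In CPM it stood at 23.2 and 51.5 in RingKO, against 1.9 and 13 in WT, with no overlap. The log2 fold change was 2.31 ± 0.94 (SE; 95% confidence interval 0.17 to 4.45; edgeR adjusted p = 0.267). It was 1.53 without WT replicate 1 and 4.27 without WT replicate 2, so its size depended on which WT library was kept. Casp14, a caspase of cornification that processes filaggrin, stood at 7.27 and 4.61 CPM in RingKO, against 9.87 and 2 CPM in WT, with no order between genotypes. Spink5, an inhibitor of skin kallikreins, had 0 counts in every library. Krt79, an upper follicle keratin, stood at 222 and 162 CPM in RingKO, against 20.9 and 2 CPM in WT, and was the 1 of 6 tested upper follicle and sebocyte markers with a positive fold change. Its part in the Klk7 values was not tested.

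Among the barrier lipid genes, Abca12, which loads lipids into lamellar granules, was the only one tested. It stood at 30.9 and 43.6 CPM in RingKO, against 25.4 and 13.7 CPM in WT. Its log2 fold change was 0.93 ± 0.59, with an edgeR adjusted p of 0.495, and 0.211 with the span and abundance trend subtracted. Both RingKO libraries lay above both WT libraries, and the 95% confidence interval was -0.42 to 2.28. Without WT replicate 1 the log2 fold change of Abca12 was 1.45 and without WT replicate 2 it was 0.534. The lipoxygenase Aloxe3, which acts after Alox12b on the ceramides of the barrier, had 0 and 47 counts in RingKO and 0 in both WT libraries, at least 6.79-fold higher over the groups with the WT pair set to its floor of 3 counts. All 47 counts were in RingKO replicate 2, the library that also held the Sprr1a counts. Alox12b had 4 and 0 counts in RingKO and 0 in both WT libraries.

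The role of secreted, surface and other proteins of differentiating keratinocytes held 7 members. They summed to 630.7 and 596.2 CPM in RingKO, against 1032 and 881.6 CPM in WT. Sfn and Calml3 were counted here as other proteins, and Sfn held the largest part of each sum. Ly6d, a small surface protein of stratified epithelium, had 295 and 575 counts in RingKO, against 530 and 579 in WT. In CPM it stood at 59.6 and 71.6 in RingKO, against 201 and 193 in WT, and each pair lay close together. The log2 fold change was -1.59 ± 0.22 (SE; 95% confidence interval -2.09 to -1.08), 3-fold lower, with an edgeR adjusted p of 0.078, the lowest of all members. It was negative in all alternatives run, from -1.74 to -1.02. Sfn, the 14-3-3 sigma protein that halts the cell cycle in differentiating keratinocytes, stood at 294 and 222 CPM in RingKO, against 477 and 405 CPM in WT. Its log2 fold change was -0.77 ± 0.20 (SE; edgeR adjusted p = 0.149), but 0.133 with the span and abundance trend subtracted. Dmkn, dermokine, stood at 129 and 127 CPM in RingKO, against 207 and 169 CPM in WT. Its log2 fold change was -0.55 ± 0.21, with an edgeR adjusted p of 0.234.

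The other members of this role held no common direction. Sbsn, suprabasin, stood at 37.8 and 62.1 CPM in RingKO, against 42.9 and 51.7 CPM in WT. Calml3, a calmodulin-like protein of differentiating keratinocytes, stood at 102 and 103 CPM in RingKO, against 102 and 62.4 CPM in WT. Sbsn overlapped, and Calml3 was a near tie in 1 pair of libraries. Krtdap, a secreted protein of suprabasal cells, had 39 and 73 counts in RingKO, against 6 and 0 in WT, and passed the count filter through its RingKO libraries. Cdsn, corneodesmosin, had 0 and 1 counts in RingKO and 0 in both WT libraries. Dmkn, Sbsn and Krtdap are neighbouring genes, and their levels in RingKO were lower, overlapping and higher than in WT.

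The 2 plakins, which link desmosomes and keratins to the inside of the envelope, lay on opposite sides of WT. Ppl, periplakin, stood at 125 and 151 CPM in RingKO, against 78.2 and 65.4 CPM in WT. Evpl, envoplakin, its partner, stood at 33.7 and 38.3 CPM in RingKO, against 39.9 and 53.4 CPM in WT. The groups did not overlap for either gene. The log2 fold change was 0.94 ± 0.25 (SE; 95% confidence interval 0.38 to 1.51; edgeR adjusted p = 0.149) for Ppl and -0.37 ± 0.43 (SE; 95% confidence interval -1.34 to 0.60; edgeR adjusted p = 0.76) for Evpl. The counts of Ppl over those of Evpl gave 3.71 and 3.93 in RingKO, against 1.96 and 1.23 in WT, a ratio within each library that needs no scaling between libraries.

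The transcription factors of differentiation were expressed in all libraries, and 5 of the 6 had an unadjusted p above the threshold. Grhl1, a Grainyhead factor of desmosomal genes, stood at 174 and 207 CPM in RingKO, against 246 and 204 CPM in WT, and its log2 fold change of -0.24 ± 0.20 had an edgeR adjusted p of 0.638. Its relative Grhl3, a factor of barrier formation, stood at 60 and 65.6 CPM in RingKO, against 69.5 and 58.1 CPM in WT. Both overlapped between genotypes. Zfp750, an effector of the epidermal regulator p63, stood at 208 and 192 CPM in RingKO, against 296 and 243 CPM in WT. Its log2 fold change was -0.43 ± 0.19 (SE; edgeR adjusted p = 0.305), and 0.0626 with the span and abundance trend subtracted. Ovol1, a repressor that ends proliferation, stood at 87 and 101 CPM in RingKO, against 114 and 58.7 CPM in WT, and Klf4, a factor of barrier formation, stood at 49.3 and 61.1 CPM in RingKO, against 43.7 and 47.7 CPM in WT. Prdm1, a repressor known from granular keratinocytes and the sebaceous gland, had 65 and 257 counts in RingKO, against 18 and 7 in WT. In CPM this is 13.1 and 32 in RingKO, against 6.83 and 2.34 in WT, a log2 fold change of 2.30 ± 1.00 (SE; 95% confidence interval 0.02 to 4.58; edgeR adjusted p = 0.297). Without RingKO replicate 2 it was 1.49, and without WT replicate 1 it was 3.27, while subtracting the span and abundance trend gave 1.44.

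**Figure D4:**
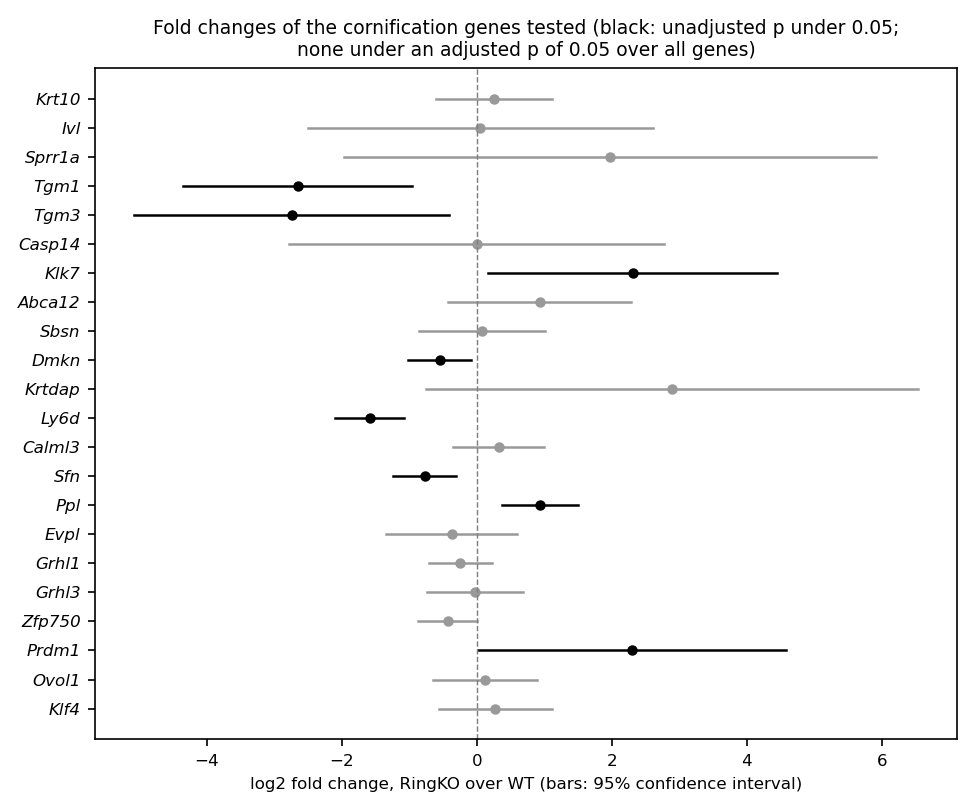
Log2 fold change of RingKO over WT (points) with its 95% confidence interval (bars) for the 22 cornification genes tested, ordered by role. The 8 genes in black had an unadjusted edgeR p under 0.05 (Tgm1, Tgm3, Dmkn, Ly6d and Sfn negative, Klk7, Ppl and Prdm1 positive), and the 14 in grey did not.

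Over the whole set, 22 of the 40 members in the table passed the low-count filter. With edgeR's quasi-likelihood test, 0 passed an adjusted p under 0.05 over all genes, and 8 had an unadjusted p under 0.05, where 16.6% of all genes tested did. Of these 8, 3 were higher (8.47% of all genes) and 5 lower (8.16%) in RingKO. Groups did not overlap at 7 members that were higher (24.8% of all genes tested) and 7 that were lower (22.3%). Among the higher members, Klk7 and Prdm1 each had 1 WT library with few counts (5 and 7), and Krtdap had few in both. These genes passed the count filter only with RingKO libraries included, so the numbers of higher members support nothing about the list. The median log2 fold change was 0.07 over the members tested, against 0.03 over all genes tested, and it was -0.34 without RingKO replicate 2. The median size of the log2 fold change was 0.491 for members and 0.418 for all genes tested. Replicates of the members differed by a median log2 ratio of 0.265 in RingKO and 0.392 in WT, in size. Over all genes tested these were 0.365 and 0.44, each with 0.5 CPM added before the ratio. DESeq2 called 6 members at an adjusted p under 0.05: Ppl higher (6.21% of all genes) and Tgm1, Tgm3, Dmkn, Ly6d and Sfn lower (6.14%). In the authors' deposited table, Klk7 and Prdm1 were marked higher (7.35% of genes with an adjusted p) and Tgm1, Tgm3 and Ly6d lower (1.29%). The adjusted p in the authors' deposited table was 0.0537 for Klk7 and 0.0663 for Prdm1. These marks therefore did not follow an adjusted p under 0.05 alone. Sfn, Ppl and Dmkn were not marked there, at adjusted p of 0.0012, 0.00174 and 0.0326 and log2 fold changes of -0.78, 0.94 and -0.55. The marked members had log2 fold changes from -2.75 to -1.59 or from 2.31 to 2.33.

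Further genes of cornification and the barrier were read from lists of 131 genes, of which 128 had a row and 80 were tested. None passed over all genes with edgeR, and 17 had an unadjusted p under 0.05 (16.6% of all genes tested did), 5 higher (8.47% of all genes) and 12 lower (8.16%). DESeq2 called as many, 5 higher (6.21% of all genes) and 12 lower (6.14%). Negative log2 fold changes were found for 47 of the 80, and for 6263 of all 13134 genes tested. Of these lists, only the S100 genes of the complex held a common direction, negative in 9 of 9 tested with TMM scaling. It was 8 of 9 with library totals alone, with the span and abundance trend subtracted, and without RingKO replicate 1. It was 7 of 9 with limma-voom, with the replicate number as a block (also crossed) and without WT replicate 2. S100a16 stood at 206 and 165 CPM in RingKO, against 359 and 326 CPM in WT. Its log2 fold change was -0.89 ± 0.19, with an edgeR adjusted p of 0.147. S100a14 stood at 192 and 163 CPM in RingKO, against 311 and 279 CPM in WT, and S100a10 at 114 and 94 CPM in RingKO, against 182 and 181 CPM in WT (edgeR adjusted p = 0.149 for each). For these 3 genes both RingKO libraries lay below both WT libraries. With the span and abundance trend subtracted, S100a14 came to -0.00417 and S100a16 to -0.31 on the log2 scale.

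Junction genes leaned the same way, with a negative log2 fold change in 11 of 15 tested, against 8 of 15 with the span and abundance trend subtracted. Gja1, connexin 43, stood at 697 and 551 CPM in RingKO, against 1259 and 919 CPM in WT (edgeR adjusted p = 0.149), and its log2 fold change of -0.80 came to -0.018 with that trend subtracted. Gjb2, connexin 26, stood at 457 and 345 CPM in RingKO, against 701 and 623 CPM in WT (edgeR adjusted p = 0.15), a direction that turned with that trend subtracted. Gjb6, connexin 30, stood at 152 and 126 CPM in RingKO, against 260 and 198 CPM in WT (edgeR adjusted p = 0.172). Groups did not overlap for these connexins. The 20 regulators tested were mixed, with 12 negative and 8 positive log2 fold changes, against 9 and 11 with the trend subtracted. Dlx3, a homeobox factor of hair and epidermis, stood at 371 and 331 CPM in RingKO, against 646 and 500 CPM in WT (edgeR adjusted p = 0.15), and it too turned with the trend subtracted. Gata3, a factor of the inner root sheath and epidermal barrier, stood at 458 and 387 CPM in RingKO, against 712 and 570 CPM in WT (edgeR adjusted p = 0.18). Its log2 fold change of -0.602 came to -0.121 with the trend subtracted. The inner root sheath markers were also lower in RingKO, as given above, and their part in these values was not tested.

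Further genes with an unadjusted p under 0.05 and higher levels in RingKO included proteases and lipoxygenases. Asprv1, a protease that processes filaggrin, stood at 9.89 and 57.5 CPM in RingKO, against 5.32 and 3 CPM in WT (edgeR adjusted p = 0.19), and its log2 fold change of 3.02 was 1.23 without RingKO replicate 2. Ctsl, cathepsin L, stood at 57.3 and 92.1 CPM in RingKO, against 28.1 and 27.7 CPM in WT (edgeR adjusted p = 0.154). Both RingKO libraries lay above both WT libraries for Asprv1 and Ctsl. Alox12e, an epidermal lipoxygenase, stood at 126 and 106 CPM in RingKO, against 64.5 and 35.7 CPM in WT (edgeR adjusted p = 0.154). Alox15, a lipoxygenase also known from macrophages, stood at 9.29 and 14.2 CPM in RingKO and at 0 counts in both WT libraries, at least 23.1-fold higher with the WT pair set to its floor of 3 counts. It passed the count filter through its RingKO libraries alone, so its place among the 5 higher genes supports nothing about the list. Leukocyte markers, at sums of 769 and 317 CPM in RingKO against 153 and 133 CPM in WT, were higher as well, and their part in the values of Ctsl and Alox15 was not tested.

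**Figure D5:**
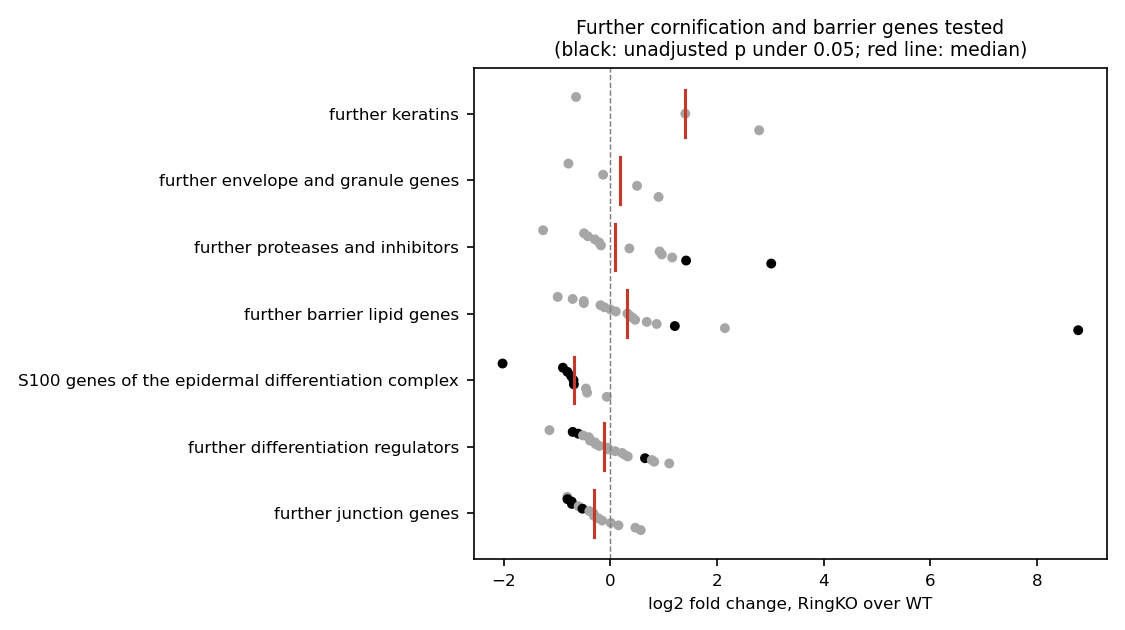
Log2 fold change of RingKO over WT for the 80 further cornification and barrier genes tested, by list; each point is a gene, black where the unadjusted edgeR p was under 0.05, and the red line is the median of the list. The 9 S100 genes lie below 0 with a median of -0.69, and the junction genes have a median of -0.31.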

How the data were processed

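RNA-seq of 2 RingKO and 2 WT libraries (SMART-seq2, polyadenylated RNA) was analysed. The count table deposited by the authors holds whole-number counts per gene symbol, without normalization. Their deposited comparison table gives the authors' log2 fold change of RingKO over WT and adjusted p-value. Per the submitters' processing notes, the tools included HTSeq 0.7.2, TopHat2 2.1.1, Bowtie 1.2.2, Picard 1.62, bcl2fastq 2 and DESeq2 (given as 3.7), with build mm9. The annotation and the use of strand were not stated. The test was edgeR 4.0.16 under R 4.3.3 (filterByExpr, TMM, robust quasi-likelihood test, genotype as the only term), with Benjamini-Hochberg adjustment over all genes tested; calls had an adjusted p under 0.05. The procedure was tested on simulated data. DESeq2 1.42.0, limma-voom 3.58.1, other scalings and filters, a loess trend on gene span and abundance, a replicate block and leaving out each library were alternatives. CPM uses TMM-scaled sizes of the genes kept. The SE, given after ±, is the size of the log2 fold change over the root of F. Intervals and floors (3 counts) cover counting error only: reads copied by PCR do not count separate molecules. Gene spans and promoters are RefSeq's for GRCm38.p6; transcript lengths were not used here, so levels of different genes were not compared. Members, lists and alternatives were chosen with earlier results of these data known. Given in full were genes passing the test, members with an unadjusted p under 0.05 and the 2 of highest mean CPM per role, and up to 3 further genes per list with an unadjusted p under 0.05; other members are given as values. 1 further gene that this rule names is not reported here.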

Additional observations from a re-analysis of the deposited data

How the results depend on the processing

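The number of genes called over all genes tested, 8 with edgeR's quasi-likelihood test, was 802 with no low-count filter, 1 with at least 1 CPM in 2 libraries, 1792 with DESeq2, 0 with limma-voom (1956 at an unadjusted p under 0.05), 1 with a trend on gene span and abundance subtracted, and from 0 to 60 without a single library (1 and 0 without RingKO replicates 1 and 2, 32 and 60 without WT replicates 1 and 2). Of the cornification genes, 0 were called with edgeR (8 unadjusted), 4 with no filter, 6 with DESeq2, and from 0 to 1 without a single library, the 1 being Ly6d without WT replicate 2 (edgeR adjusted p = 0.0425). Each such fit leaves 1 genotype with a lone library, which is assumed to vary like the other genotype's pair. Of the further genes, 0 were called with edgeR (17 unadjusted), 12 with no filter and 17 with DESeq2. With no filter, 35 members and 97 further genes were tested among 18827 genes. DESeq2 called 12.4% of the genes to which it gave an adjusted p. With edgeR, 2184 of all 13134 genes tested had an unadjusted p under 0.05. The members' median log2 fold change, 0.0671, ran from -0.34 (without RingKO replicate 2) to 0.154 without a single library. The median over all genes tested was 0.0336, 0.134 with library totals alone and -0.0783 with the trend subtracted.

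Replicate numbers are not said to pair the libraries. With the replicate number as a block, edgeR called 416 of 13134 genes, 2 of 22 members (Ly6d and Sfn) and 7 of 80 further genes. Same-numbered libraries deviated at a correlation of -0.14 across genes. With the WT numbers crossed, a setting chosen after seeing the data, the block gave 8 genes (2256 unadjusted), 0 members (8 unadjusted) and 0 further genes (18 unadjusted).

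Directions turned for genes that edgeR did not call. Sprr1a, 1.97, was -0.646 with limma-voom, -0.541 with the block, -0.43 with the crossed block and from -7.55 to 2.96 without a single library. Ivl, 0.0546, was -0.525 with the trend subtracted, -0.00314 with the block, -0.0244 with the crossed block and from -1.42 to 1.35 without a single library. Krt10 ran from -0.0112 to 0.565 without a single library. With the trend subtracted, Sfn was 0.133, Zfp750 0.0626, Dlx3 0.0707 and Gjb2 0.0652. The causes were not tested. Depth limits the members at 0 counts, which, for counting error alone, may be present below 0.373 to 1.14 CPM. This bound does not cover reads shared between near-identical gene copies, as raised above for the small proline-rich genes.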
